A study of Mus musculus with 12 samples.

Results

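The S100 genes encode small calcium-binding proteins, and 10 of them were followed in the newborn mouse brain: S100a1, S100a4, S100a6, S100a8, S100a9, S100a10, S100a11, S100a13, S100a16 and S100b. They were taken by symbol from 2 deposited tables of 23983 entries each, in which all 10 had an entry of their own. The group was selected partly on the FPKM values of S100a9, which are higher in mutant cortex, so the differences below are a description and not a test of the family. RNA-seq of whole tissue at postnatal day 0 covered 12 libraries in 4 groups of 3: vKO cortex, WT cortex, vKO subcortex and WT subcortex. The vKO mice carried the genotype that the labels write as Reck flex2/Δex1; Tie2Cre, a vascular knockout of Reck, and the WT mice are labelled wild type with no further allele named. The strain is given as mixed for all groups, and the labels do not say whether a library is 1 animal. Tie2-Cre is active in endothelial cells and also in blood lineages, among them the myeloid cells that are the main source of S100a8 and S100a9.

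S100 proteins fold around a pair of EF-hand loops and usually work as dimers. On binding calcium most of them expose a surface that grips a partner protein, such as an annexin, a myosin or an enzyme. S100A8 and S100A9 pair as calprotectin, which fills the cytosol of neutrophils and monocytes and also chelates zinc and manganese. When released it can act on the receptors TLR4 and RAGE. In brain S100B is best known from astrocytes, ependymal cells and cells of the oligodendrocyte lineage.

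The stretches upstream of S100a8 and S100a9 are shown because these genes had the largest ratios of the family in each tissue. Each line gives the 250 bases before the start of the gene, 5′ to 3′ on the gene's own strand, from RefSeq on GRCm38.p6, the build also called mm10. Capitals mark TATAAA, the letters of a TATA box, and TTNNGNAA, a relaxed form of the element bound by C/EBP factors, on either strand. The S100a8 stretch is chr3:90668821-90669070 on the plus strand and the S100a9 stretch is chr3:90695722-90695971 on the minus strand.
S100a8: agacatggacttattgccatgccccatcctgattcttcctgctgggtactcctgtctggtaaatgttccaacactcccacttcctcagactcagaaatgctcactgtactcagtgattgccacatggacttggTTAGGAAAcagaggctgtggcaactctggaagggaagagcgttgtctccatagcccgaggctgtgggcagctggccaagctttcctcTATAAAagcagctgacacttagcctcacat
S100a9: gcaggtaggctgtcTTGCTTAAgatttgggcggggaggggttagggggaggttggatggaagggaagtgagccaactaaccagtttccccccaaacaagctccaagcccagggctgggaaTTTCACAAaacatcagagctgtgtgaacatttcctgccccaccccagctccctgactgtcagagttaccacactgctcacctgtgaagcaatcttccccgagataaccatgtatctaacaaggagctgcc

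S100a8 held TATAAA from 30 to 25 bases before its RefSeq start, and TTNNGNAA from 117 to 110 bases before it. The S100a8 start in GENCODE M21, the annotation used for lengths below, lies upstream of the RefSeq start, within this window. S100a9 held TTNNGNAA at 236 to 229 and at 130 to 123 bases before its start, both read on the opposite strand, and no TATAAA in this window. Of 32851 upstream windows in the table, 12.4% held TATAAA and 36.8% held TTNNGNAA. Windows were found for 9 of the members, 10 windows in all, and S100a10 had none. Among the 10, 2 held TATAAA, 2 held TTNNGNAA, 3 held the PU.1 letters GAGGAA, 2 held the AP-1 letters TGANTCA and 3 held the Sp1 letters GGGCGG. The shares over all windows were 23.3% for GAGGAA, 6.75% for TGANTCA and 32.7% for GGGCGG. A match of letters is a description of the sequence only.

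S100a1 and S100a13 start back to back on chromosome 3, S100a1 on the minus and S100a13 on the plus strand. The bases between their RefSeq starts are shown because any element there lies upstream of both of these starts. This stretch, chr3:90514331-90514434 read on the plus strand, is 104 bases long, 58.7% GC, and has 3 CpG sites. In GENCODE M21 the S100a1 start lies 62 bases further, inside this stretch.
S100a1-S100a13: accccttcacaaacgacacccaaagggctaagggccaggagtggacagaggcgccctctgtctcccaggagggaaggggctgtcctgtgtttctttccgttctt

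Each group is represented by 1 FPKM value for a gene (fragments scaled by transcript length and by the number of mapped fragments), which the authors computed from its 3 libraries. Neither a spread between libraries nor their depth can be had from these values, so the order of neighbouring levels cannot be judged against replicate error. Calls are those of the authors' deposited table, q-value under 0.05 over all tested genes, and "rose" or "fell" is used only where that call was made. Ratios are log2((vKO FPKM + 1)/(WT FPKM + 1)). The added 1 makes changes of low genes look smaller than they are. The 2 tables were normalized separately, so values of cortex and subcortex are set side by side without a test. In whole tissue, more cells of a type and more RNA per cell cannot be told apart.

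Markers outside the family, named after their values were seen, describe the samples. The cortical marker Neurod6 stood at 168 FPKM in vKO and 98.3 FPKM in WT cortex, and at 6.08 FPKM in vKO and 6.61 FPKM in WT subcortex. The thalamic marker Tcf7l2 stood at 1.07 FPKM in vKO and 4.71 FPKM in WT cortex, and at 33.2 FPKM in vKO and 37 FPKM in WT subcortex. Reck, the targeted gene, was not called in either of the authors' deposited tables. It had 3.23 FPKM in vKO and 2.91 FPKM in WT cortex, and 3.49 FPKM in vKO and 2.37 FPKM in WT subcortex, values of the whole gene in whole tissue that do not check the deletion. Xist, expressed from the inactive X of female cells, had 18.6 FPKM in vKO and 0.0417 FPKM in WT cortex, and 10.2 FPKM in vKO and 0.0369 FPKM in WT subcortex. The Y-linked Eif2s3y had 15.8 FPKM in vKO and 30.4 FPKM in WT cortex, and 13.3 FPKM in vKO and 27.6 FPKM in WT subcortex, so both genotypes hold male tissue. A difference in the share of each sex and the genotype cannot be told apart here.

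In vKO cortex S100a9, S100a10 and S100a16 rose, and no member fell. These were 3 of the 9 members tested in cortex, or 33.3%, where 8.15% of all 13594 tested genes were called higher in the authors' deposited table and 11.3% lower. The other 6 tested members did not pass, 5 of them with a higher and S100b with a lower value in vKO. S100a4 was marked as too low to test. Among genes of like transcript length the share was larger: of the 1798 tested genes between 486 and 1484 bases, the range of the members, 27.2% were called higher. The members were chosen with S100a9 in view, so nothing is read from these shares.

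In subcortex all 10 members were tested and the authors' deposited table calls none of them, where 0.451% of 13735 tested genes were called higher and 0.262% lower, and 0.331% of those between 486 and 1484 bases higher. At an unadjusted p under 0.05 in the authors' deposited tables, the count was 5 of 9 tested members in cortex, beside 32.1% of all tested genes, and 2 of 10 in subcortex, beside 6.31%. The median ratio of the tested members was 0.56 in cortex, beside 0.00 for all tested genes, and -0.00 in subcortex, beside -0.00 for all tested genes.

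**Figure D1:**
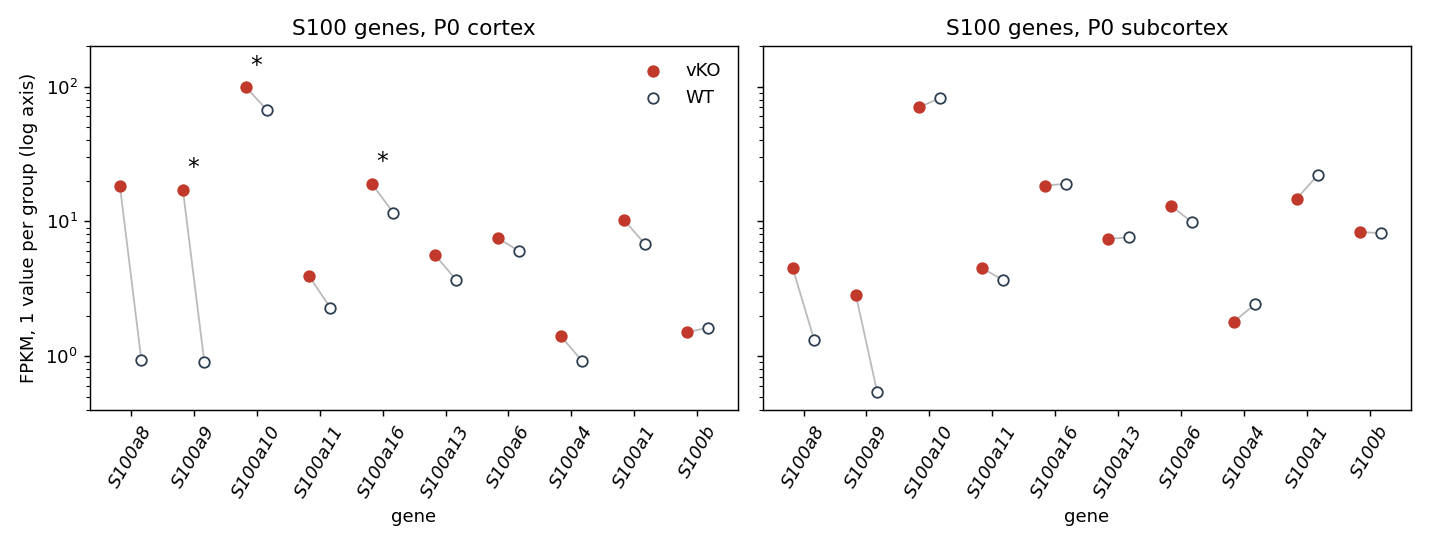
FPKM of the 10 S100 genes on a log axis in cortex (left panel) and subcortex (right panel), with filled points for vKO and open points for WT, 1 value per group; an asterisk marks a q-value under 0.05 in the authors' deposited table. S100a8 and S100a9 lie near 1 FPKM in WT cortex and at 18.4 and 17.2 FPKM in vKO cortex, while S100a10 is the highest member in all 4 groups.

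S100a9 and S100a8, the subunits of calprotectin, had by far the largest ratios. S100a9 (ENSMUSG00000056071.12, chr3:90692630-90695721, minus strand) stood at 17.2 FPKM in vKO cortex and 0.908 FPKM in WT cortex. That is an 18.9-fold higher value and a log2 ratio of 3.25 (q = 0.000806, authors' deposited table). Of the tested cortex genes, 20 had a ratio at least as high, counting S100a9, and 7 of these were called. S100a8 (ENSMUSG00000056054.9, chr3:90669071-90670034, plus strand) stood at 18.4 FPKM in vKO cortex and 0.941 FPKM in WT cortex. Its 19.5-fold higher value, a log2 ratio of 3.32, was close to that of S100a9 but was not called in the authors' deposited table (p = 0.044, q = 0.143).

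In subcortex the calprotectin genes were again higher in vKO, by less, and neither was called. S100a9 had 2.86 FPKM in vKO and 0.541 FPKM in WT, a log2 ratio of 1.32 (q = 0.999, authors' deposited table). S100a8 had 4.47 FPKM in vKO and 1.32 FPKM in WT, a log2 ratio of 1.24, not called in the authors' deposited table (p = 0.0239, q = 0.607). Whether the ratios of cortex and subcortex differ was not tested. The subunits stood at similar levels per length in cortex: the S100a8 value over the S100a9 value was 1.07 in vKO and 1.04 in WT. In subcortex that quotient was 1.57 in vKO and 2.44 in WT, at WT values near 1 FPKM.

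S100a10 and S100a11 are partners of annexins. S100a10, also called p11, has lost the ability to bind calcium and sits with annexin A2 at the plasma membrane, where the complex binds plasminogen and its activator. It was the most abundant member in each group, with 99 FPKM in vKO cortex and 66.7 FPKM in WT cortex. The difference of 32.2 FPKM was the largest of the family, while the fold was only 1.48 (log2 ratio 0.56; q = 0.00202, authors' deposited table). S100a10 supplied 53.8% of the summed FPKM of the members in vKO cortex and 65.8% in WT cortex. In subcortex it had 70.1 FPKM in vKO and 82.2 FPKM in WT (-0.23) (q = 0.999, authors' deposited table).

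S100a11, which binds annexin A1, had 3.95 FPKM in vKO and 2.29 FPKM in WT cortex, a log2 ratio of 0.59 that was not called (q = 0.217, authors' deposited table). In subcortex it had 4.5 FPKM in vKO and 3.67 FPKM in WT (0.23), also not called. Its transcript shares at least 90% of its letters over 100 bases or more with transcripts of 5 other annotated genes, among them S100a11-ps, its pseudogene, so which of them its reads came from is uncertain.

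S100a16, a widely expressed member known from work on adipocytes, rose in cortex. Its values were 19 FPKM in vKO and 11.6 FPKM in WT cortex, a 1.64-fold higher value (0.67) (q = 0.00202, authors' deposited table). Its subcortex values were 18.4 FPKM in vKO and 19 FPKM in WT (-0.04), a difference that was not called. S100a13, which takes part in the release of the growth factor FGF1 from cells, had 5.65 FPKM in vKO and 3.68 FPKM in WT cortex (0.51) (q = 0.157, authors' deposited table). In subcortex S100a13 had 7.43 FPKM in vKO and 7.6 FPKM in WT (-0.03).

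S100a6 and S100a4 are expressed in fibroblasts and other motile or dividing cells. S100a6, or calcyclin, had 7.52 FPKM in vKO and 6.01 FPKM in WT cortex (0.28), and 13.1 FPKM in vKO and 9.85 FPKM in WT subcortex (0.37). Neither difference was called, where the authors' deposited tables give q = 0.433 for cortex and q = 0.927 for subcortex. S100a4, which binds the heavy chain of non-muscle myosin, was the lowest member in vKO cortex at 1.41 FPKM, against 0.920 FPKM in WT cortex. In subcortex it was tested and not called, at 1.8 FPKM in vKO and 2.43 FPKM in WT (-0.29). A further annotated gene, Gm42674, shares a stretch of its transcript.

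S100a1, best known from heart and skeletal muscle, where it acts on calcium release and uptake, pointed in opposite directions in cortex and subcortex. It had 10.3 FPKM in vKO and 6.76 FPKM in WT cortex, a log2 ratio of 0.54 given p = 0.0245 and q = 0.096 by the authors' deposited table. In subcortex it had 14.7 FPKM in vKO and 22.2 FPKM in WT, a log2 ratio of -0.56 given p = 0.0092 and q = 0.376 by the authors' deposited table. Neither was called, and the difference between the tissues was not tested. S100a13, separated from the RefSeq start of S100a1 by 104 bases, had a ratio close to that of S100a1 in cortex but one near 0 in subcortex.

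S100b was the one tested member with a lower value in vKO cortex, 1.5 FPKM against 1.63 FPKM in WT cortex (-0.07) (q = 0.835, authors' deposited table). In subcortex it had 8.32 FPKM in vKO and 8.19 FPKM in WT (0.02). Its values differed little between genotypes in each tissue and were higher in both subcortex groups than in both cortex groups. It is also the only member off chromosome 3, at chr10:76253836-76261319.

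The order of levels in cortex was changed by the calprotectin genes. In WT cortex the descending order was S100a10, S100a16, S100a1, S100a6, S100a13, S100a11, S100b, S100a8, S100a4 and S100a9, with the last 3 between 0.908 and 0.941 FPKM. In vKO cortex S100a8 and S100a9 stood directly after S100a10 and S100a16, and the other members kept their order among themselves. S100a8 was above 1.66% of the tested genes in WT cortex and above 68.8% in vKO cortex. Without S100a8 and S100a9, the summed FPKM of the other 8 members was 148 in vKO and 99.6 in WT cortex, and 138 in vKO and 155 in WT subcortex.

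Ratios in cortex followed transcript length, and S100 transcripts are short. Across 13465 tested genes with a length, the Spearman correlation of ratio with length was -0.551 in cortex, and over 13614 genes it was 0.02 in subcortex. Genes are not independent replicates, so no p-value is given. The tested cortex genes between 486 and 1484 bases had a median ratio of 0.34. With the median of genes of like length subtracted, the ratios in cortex were 2.94 for S100a8, 2.87 for S100a9, 0.32 for S100a16, 0.18 for S100a10 and 0.16 for S100a1. S100a6 moved to -0.10, S100a4 to -0.06 and S100b to -0.30. The part of transcript length in the calls of S100a10 and S100a16 was not tested.

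**Figure D2:**
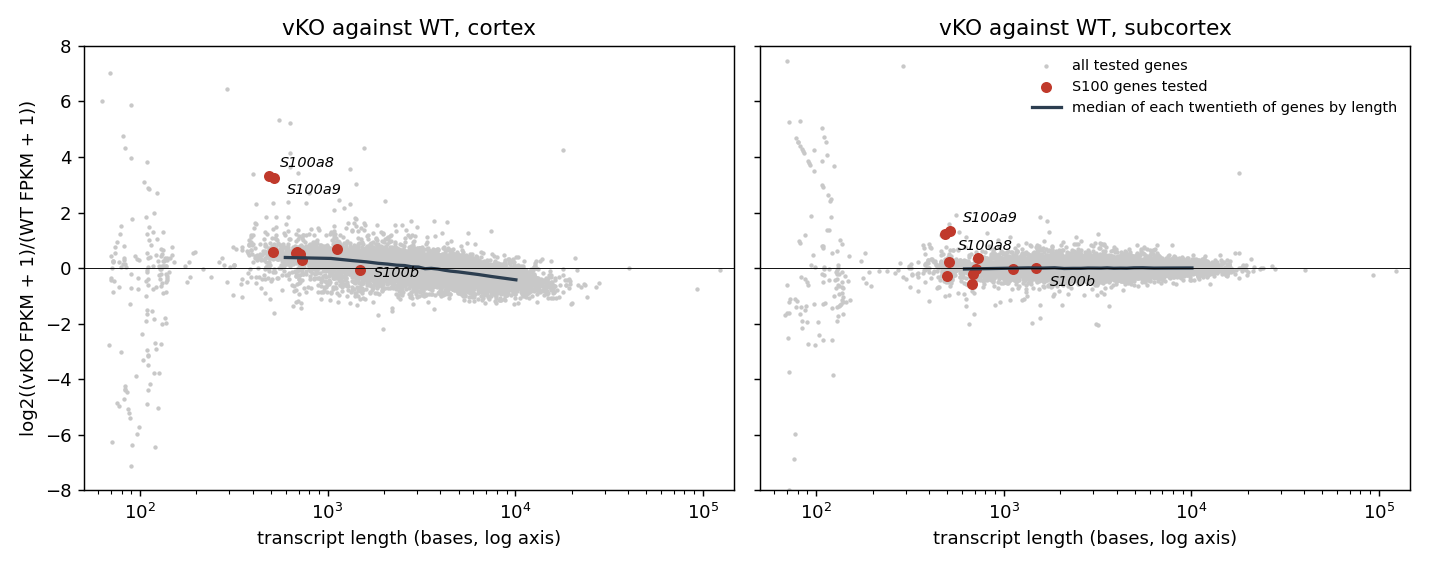
Log2 ratio of vKO over WT, with 1 added to each FPKM, against transcript length on a log axis for all tested genes (grey), the tested S100 genes (red) and the median of each twentieth of genes by length (line), in cortex and subcortex. In cortex the line falls with length and most S100 genes lie within the cloud around it, while S100a8 and S100a9 lie at 3.32 and 3.25; in subcortex the line is flat.

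The remaining family members hardly registered. S100a2, S100a3, S100a5, S100a7a, S100a14, S100g and S100z were all under 1 FPKM in each group and none was tested. In cortex 5 of the 7 were listed at 0 in vKO and 2 in WT, and in subcortex 2 in vKO and 4 in WT. S100a3 had the highest value among them, 0.632 FPKM in vKO subcortex, against 0.437 FPKM in WT subcortex. A listed 0 can also be a failed estimate.

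Of 6 genes for receptors of S100 proteins, 2 rose in cortex and none fell. Of all tested genes in cortex, 8.15% were called higher and 11.3% lower. Cd36, a scavenger receptor, had 2 FPKM in vKO and 0.368 FPKM in WT cortex (1.13) (q = 0.000806, authors' deposited table). Tlr4, a receptor of innate immunity that answers to calprotectin, had 1.28 FPKM in vKO and 0.588 FPKM in WT cortex (0.52) (q = 0.00535, authors' deposited table). Ager, which encodes RAGE, stayed uncalled at 1.05 FPKM in vKO and 0.988 FPKM in WT cortex. The most abundant of the list, Bsg, had 170 FPKM in vKO and 165 FPKM in WT cortex and was not called. Nptn, at 78.6 FPKM in vKO and 80.1 FPKM in WT cortex, was the one receptor gene with a lower value, also not called. Mcam had 7.51 FPKM in vKO and 5.6 FPKM in WT cortex and was not called (q = 0.0756, authors' deposited table). In subcortex 1 of 5 tested receptor genes rose, where 0.451% of all tested genes were called higher and 0.262% lower. This was Mcam, an adhesion molecule of vessels, with 7.77 FPKM in vKO and 4.09 FPKM in WT (0.78) (q = 0.0104, authors' deposited table).

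Of 10 tested genes for intracellular or secreted partners, 3 rose in cortex and none fell, where 8.15% of all tested genes were called higher and 11.3% lower. By value 5 were higher and 5 lower in vKO cortex, and the median ratio was 0.05. Anxa2, the partner of S100a10, had 40 FPKM in vKO and 21.5 FPKM in WT cortex (0.87) (q = 0.000806, authors' deposited table). Anxa1, the partner of S100a11, had 5.21 FPKM in vKO and 2.42 FPKM in WT cortex (0.86), again at q = 0.000806 (authors' deposited table). Cacybp, the partner of S100a6, had 57.4 FPKM in vKO and 41.5 FPKM in WT cortex (0.46) (q = 0.0132, authors' deposited table). The other annexins of the list were not called: Anxa6 had 22.3 FPKM in vKO and 20.2 FPKM in WT cortex (q = 0.574, authors' deposited table), and Anxa11, at 0.364 FPKM in vKO and 0.426 FPKM in WT cortex, was not tested. The scaffold Ahnak, which also binds the annexin A2 complex, had 5.7 FPKM in vKO and 5.9 FPKM in WT cortex. Plat, the plasminogen activator that the complex binds, had 18.1 FPKM in vKO and 15.7 FPKM in WT cortex and was not called. The remaining tested partners were lower in vKO cortex and not called. Myh9, a non-muscle myosin heavy chain, had 12.2 FPKM in vKO and 15.1 FPKM in WT cortex. Fgf1 had 0.567 FPKM in vKO and 0.972 FPKM in WT cortex. Syt1 had 54.8 FPKM in vKO and 67.8 FPKM in WT cortex, and Trp53 had 9.05 FPKM in vKO and 10.6 FPKM in WT cortex. In subcortex the authors' deposited table calls none of the 10 tested partners, beside 0.451% of all tested genes called higher and 0.262% lower. The median ratio of these partners was 0.12. Anxa2 had the lowest p-value of that list there, 0.00955 (q = 0.378) by the authors' deposited table, at 37.2 FPKM in vKO and 27.4 FPKM in WT.

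Marker lists of myeloid cells also summed higher in vKO cortex. The neutrophil list summed to 8.04 FPKM in vKO and 4.77 FPKM in WT cortex over the 13 of 14 genes found. Of its 3 tested genes only Mmp9 was called, and it fell, where 8.15% of all tested genes were called higher and 11.3% lower. Mmp9 had 0.984 FPKM in vKO and 2.36 FPKM in WT cortex (-0.76) (q = 0.000806, authors' deposited table). The sums without Mmp9, taken after its value was seen, were 7.05 FPKM in vKO and 2.41 FPKM in WT cortex. The other tested genes of the list, named after their values were seen, had higher values in vKO cortex and were not called. Prtn3, a protease of neutrophil granules, had 2.59 FPKM in vKO and 1.63 FPKM in WT cortex (0.45) (q = 0.716, authors' deposited table). Retnlg, a resistin-like gene of neutrophils, had 1.45 FPKM in vKO and 0.0770 FPKM in WT cortex (1.18) (q = 0.328, authors' deposited table). Of the granule genes too low to test, chosen likewise, Camp had 0.852 FPKM in vKO and 0.0653 FPKM in WT cortex, Ngp had 0.487 FPKM in vKO and 0.253 FPKM in WT cortex, and Elane was listed at 0 in both. In all, 10 of the 13 were under 1 FPKM in both cortex groups. In subcortex the list summed to 6.78 FPKM in vKO and 5.16 FPKM in WT, and none of its 2 tested genes was called. There 0.451% of all tested genes were called higher and 0.262% lower.

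The monocyte and macrophage list summed to 67.3 FPKM in vKO and 11.1 FPKM in WT cortex, and all 5 of its tested genes rose. Of all tested genes in cortex 8.15% were called higher, and of those between 486 and 1484 bases 27.2%. Lyz2, the lysozyme of myeloid cells, made up most of the vKO sum, with 47.9 FPKM in vKO and 3.14 FPKM in WT cortex (3.56) (q = 0.000806, authors' deposited table). In subcortex that list summed to 18.9 FPKM in vKO and 13.3 FPKM in WT, and Lyz2 was the 1 called of 4 tested, with 10.1 FPKM in vKO and 4.86 FPKM in WT (q = 0.0104, authors' deposited table). Microglial genes rose in 7 of 10 tested in cortex, with sums of 147 FPKM in vKO and 65.8 FPKM in WT. In subcortex 0 of the 9 tested microglial genes was called in the authors' deposited table, where 0.451% of all tested genes were called higher and 0.262% lower.

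Red cell genes summed higher in vKO cortex as well. The erythroid list summed to 5480 FPKM in vKO and 310 FPKM in WT cortex, and 2 of its 6 tested entries rose. Of all tested genes in cortex 8.15% were called higher, and of those between 486 and 1484 bases 27.2%. Some entries overlap: Hba-a2 and Hbb-bs each had an entry of their own and a further one shared with Hba-a1 or Hbb-b1. The sums and entry counts hold these genes more than once. In subcortex the erythroid list summed to 636 FPKM in vKO and 532 FPKM in WT, with none of 6 called in the authors' deposited table. There 0.451% of all tested genes were called higher and 0.262% lower. The part of blood and myeloid cells in the values of S100a8 and S100a9 was not tested.

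Among 5 tested regulators of myeloid genes, 3 of the C/EBP family rose in cortex, where 8.15% of all tested genes were called higher. Cebpd had 4.17 FPKM in vKO and 1.32 FPKM in WT cortex (q = 0.000806, authors' deposited table). Cebpb had 3.25 FPKM in vKO and 1.05 FPKM in WT cortex, and Cebpa had 1.79 FPKM in vKO and 0.996 FPKM in WT cortex. The authors' deposited table gives q = 0.00202 for Cebpb and q = 0.026 for Cebpa. Spi1, which encodes PU.1 and was named after its value was seen, had 1.88 FPKM in vKO and 0.959 FPKM in WT cortex (q = 0.058, authors' deposited table). Stat3, the other tested regulator and likewise named late, had 8.08 FPKM in vKO and 8.34 FPKM in WT cortex (q = 0.892, authors' deposited table). None of the 5 tested in subcortex was called, where 0.451% of all tested genes were called higher and 0.262% lower.

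Markers of cells that can hold the other members were called in both directions in cortex, as were tested genes at large. Of all tested genes, 8.15% were called higher and 11.3% lower in cortex, and 0.451% higher and 0.262% lower in subcortex. Nothing about these cells is read from the counts. Astrocyte and radial glia genes, from cells known for S100b, had 3 of 10 risen and 2 fallen in cortex and none called in subcortex. Ependymal genes had 0 of 4 called in cortex and 0 of 6 in subcortex, and oligodendrocyte genes 1 of 9 fallen in cortex and 0 of 9 called in subcortex. Meningeal fibroblast genes, from cells that can express S100a4 and S100a6, had 3 of 9 risen and 1 fallen in cortex and 2 of 9 fallen in subcortex. Endothelial genes had 2 of 8 risen and 3 fallen in cortex and 2 of 8 risen in subcortex. Mural genes had 3 of 7 risen and 1 fallen in cortex and 2 of 7 risen in subcortex, and none of 5 neuronal genes was called in either tissue.

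**Figure D3:**
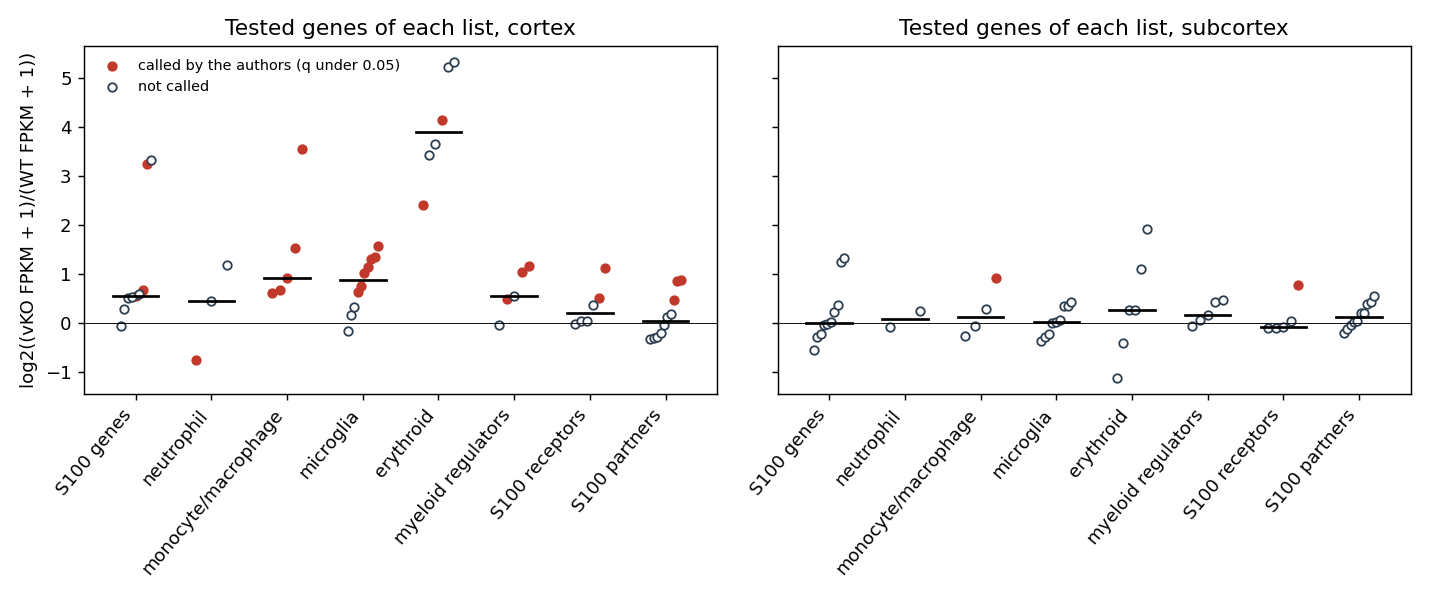
Log2 ratio of vKO over WT, with 1 added to each FPKM, for the tested genes of each list in cortex and subcortex; filled points were called by the authors, open points were not, and the bar is the median of the list. In cortex the ratios of S100a8 and S100a9 lie with those of Lyz2 and the erythroid entries, above the microglial genes, and in subcortex called genes are few.

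The entries whose values over the 4 groups ran most like those of S100a9 were sought by the distance between log2(FPKM + 1) values centred on each gene's mean. Among 14390 entries with at least 1 FPKM in a group, the 5 nearest were Hbb-y, S100a8, Lyz2, Hba-x and Hbb-b2. Their distances were 0.48 for Hbb-y, 0.50 for S100a8, 0.58 for Lyz2, 0.73 for Hba-x and 0.79 for Hbb-b2. Hbb-y, an embryonic globin, had 12.4 FPKM in vKO and 0.0607 FPKM in WT cortex, and 1.93 FPKM in vKO and 0.36 FPKM in WT subcortex. Hba-x had 6.62 FPKM in vKO and 0.167 FPKM in WT cortex. Neither was called in cortex, where the authors' deposited table gives q = 0.286 for Hbb-y and q = 0.466 for Hba-x. In subcortex Hbb-y was not called and Hba-x was not tested. The nearest of the remaining members was S100a10, at a distance of 2.49 and rank 1092. Likeness over 4 group values is a description, and with 0.1 added in place of 1 only S100a8 and Hba-x stayed among the 5.

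On chromosome 3 the 9 members lie in 2 stretches. The first runs from S100a1 through S100a13, S100a16, S100a4, S100a6 and S100a8 to S100a9, and 2824774 bases separate S100a9 from S100a11, with S100a10 a further 28828 bases on. This region is the epidermal differentiation complex, and its other entries were nearly silent. Of 60 entries between the outermost members, 59 were under 1 FPKM in both cortex groups, and only Lor, a cornified envelope gene named after its value was seen, was tested. It had 0.880 FPKM in vKO and 1.48 FPKM in WT cortex and was not called. S100a8 lies 22595 bases from S100a9, its nearest member. On its other side, at a distance of 54656 bases, S100a6 had a log2 ratio of 0.28 in cortex.

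**Figure D4:**
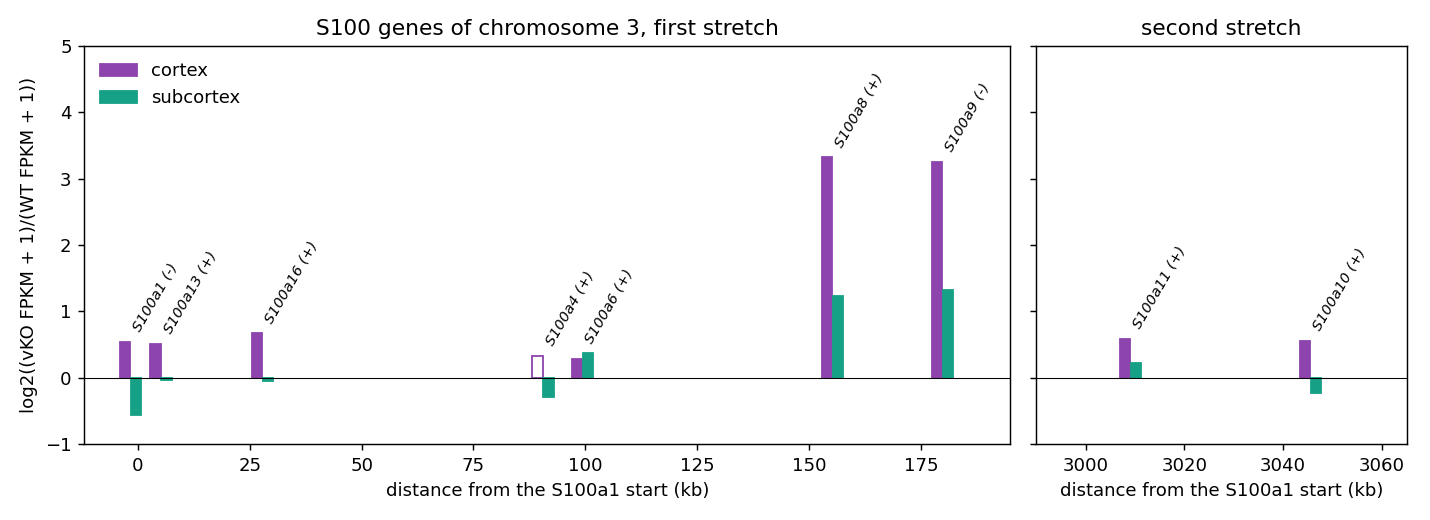
Log2 ratio of vKO over WT, with 1 added to each FPKM, for the 9 S100 genes of chromosome 3 in cortex and subcortex, placed by their distance in kilobases from the start of S100a1, with the strand in brackets and S100a4 in cortex drawn open because it was not tested. S100a8 and S100a9 stand at the end of the first stretch with ratios of 3.32 and 3.25 in cortex, and the other members lie between 0.28 and 0.67.

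The members are distant relatives in sequence. Over the 45 pairs, the coding sequences were identical at 36% to 62.8% of aligned positions, with a median of 50%. S100a8 and S100a9 shared 49.6%, and S100a1 and S100b were the closest pair. In cortex their log2 ratios were 0.54 for S100a1 and -0.07 for S100b. No copy outside the gene itself, at 90% identity over 100 bases, was found for the members other than S100a4 and S100a11.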

How the data were processed

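Per the labels' protocols, RNA of whole cortex and subcortex went into stranded total RNA libraries (TruSeq). The submitters' processing notes name mm10, HISAT2 2.0.1, Cufflinks 2.2.1 and Cuffdiff; the annotation and the strand setting are not given in the sources used here. The deposited tables hold the authors' FPKM, 1 value per group (column letters W and M were read as WT and vKO), and their p-value and q-value per gene, per the file headers. The lowest p-value listed is 5e-05. Cortex and subcortex had 13594 and 13735 tested genes.

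From these values, log2 ratios with a pseudocount of 1, list counts, medians and distances were computed (Python 3.11.15, pandas 2.3.3). The trend with transcript length, from GENCODE M21 (longest coding transcript), was removed with medians of 20 length bins, a step tested on simulated data. Copies were searched with BLAST 2.17.0, and coding sequences, in place of the proteins first planned, were aligned with Biopython 1.88. File starts were raised by 1 to count from 1. All 10 members are named; of each marker list up to 3 called genes or the 2 highest were eligible. Likeness to S100a9 named 5 entries. The members, lists and rules were chosen with earlier results of these data known. The list genes Ly6g, Hbb-bt and Ahsp were not analysed here. Alternatives were other thresholds, pseudocounts, scalings and filters.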

Additional observations from a re-analysis of the deposited data

How the results depend on the processing

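The counts of called members, 3 higher and 0 lower in cortex and 0 in either direction in subcortex, were the same at a q-value under 0.01, with at least 1 FPKM in a group, and with an own adjustment over genes of at least 1 FPKM. A 1.5-fold minimum left 2 of the 3 in cortex, without S100a10. The median log2 ratio of the tested members in cortex, 0.56, became 0.367 with each group scaled to the same sum, which moved the median of all tested genes there to -0.20, and 0.18 with the length trend removed. In subcortex the median of -0.0032 became 0.0919 with the scaling, beside 0.094 for all tested genes, and 0.00908 with the length trend removed. Scaling turned the signs of 2 members in subcortex, S100a13 and S100a16, neither of them called. Removing the length trend turned 2 in cortex, S100a4 and S100a6, and brought S100a13 to 0.00 in subcortex. A pseudocount of 0.1 and centring turned no member's sign. Leaving out S100a8 and S100a9, chosen after seeing the data, gave medians of 0.54 in cortex and -0.03 in subcortex.

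No paired analysis was possible because the deposited values are pooled by group. Leaving out single replicates was not run for the same reason. Without values per library, no result here has an error of its own.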
